A study of Nasonia vitripennis and Nasonia giraulti with 12 samples.

Results

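The genes described here are 31 of the 24337 in a count table of adult jewel wasps. They are moderately higher in males than in females of both species, and they sit side by side in 9 runs of at least 3 adjacent rows. RNA was taken from whole bodies 24 h after eclosion, from pools of 10 animals per library. The groups were males and females of Nasonia giraulti (strain R16A) and males and females of Nasonia vitripennis (strain AsymCX), with 3 libraries each. No treatment is named in the labels, each species is represented by 1 strain, and the labels call the replicates independent batches.

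In Nasonia, as in other wasps, unfertilised eggs give haploid males and fertilised eggs give diploid females. In adult insects, genes that are more abundant in males are commonly those of the testis, the accessory glands and other male tissues, and whole bodies mix all of these with tissues that both sexes share. Neighbouring genes can be expressed alike where they share a promoter region, an enhancer or a chromatin domain, or where they arose by tandem duplication, and in Drosophila melanogaster genes expressed in the testis are known to lie in clusters. In whole-body RNA, more cells of a type and more RNA per cell of that type cannot be told apart.

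Expression is given as CPM, a gene's count scaled to the total count of its library. A gene qualified if it held no fractional count, had a mean of 5 to below 300 CPM in the males of each species, and had a log2 difference of males over females from 1 to below 3.5 in each species. The absolute species difference in males also had to be below 2 on the log2 scale, and 0.5 CPM was added before taking logs. Of all rows, 953 (3.92%) qualified. Sorted by identifier number, 734 of these stood alone, 94 pairs stood in runs of 2, and the 31 members made up the 7 runs of 3 genes and the 2 runs of 5 genes. Runs of 2 or more were to be taken only if runs of 3 or more held under 30 genes. The sex differences in both species and the species difference in males were thus used to choose the members and are given as a description. The identifiers follow an annotation that the name table used here did not hold, with 0 of 24337 matched, so what the members encode is not stated. The runs are numbered 1 to 9 by identifier.

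Identifier order stands in for genome order. In 958 isolated pairs of adjacent rows with fractional counts, 918 pairs summed to whole counts, with a tolerance of 0.02 reads and a relative tolerance of 2e-05. Adjacent rows may thus have divided reads between them, which was not tested against other pairs of rows. No fractional gene could be a member, and none of the 18 rows that border the runs held fractional counts. The numbers were consecutive in 6 of the 9 runs. In runs 1, 4 and 5 the table skipped 5, 2 and 1 identifier numbers. Where scaffolds end is not given in the files, and gene lengths are not either, so levels are compared between libraries and not between genes.

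Library totals were 26494193 to 39597569 counts for males and 32463168 to 39045479 for females of N. giraulti. For N. vitripennis they were 23763596 to 51374887 for males and 24516522 to 47509108 for females. Each of the 31 members passed the filter on low counts, and the lowest count of any member in any library was 30. The members held 0.224% ± 0.0129 (SD, n = 3) of all counts in N. giraulti males, against 0.0870% ± 0.00484 in N. giraulti females. They held 0.211% ± 0.0162 in N. vitripennis males, against 0.0507% ± 0.00854 in N. vitripennis females (n = 3 each).

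**Figure D1:**
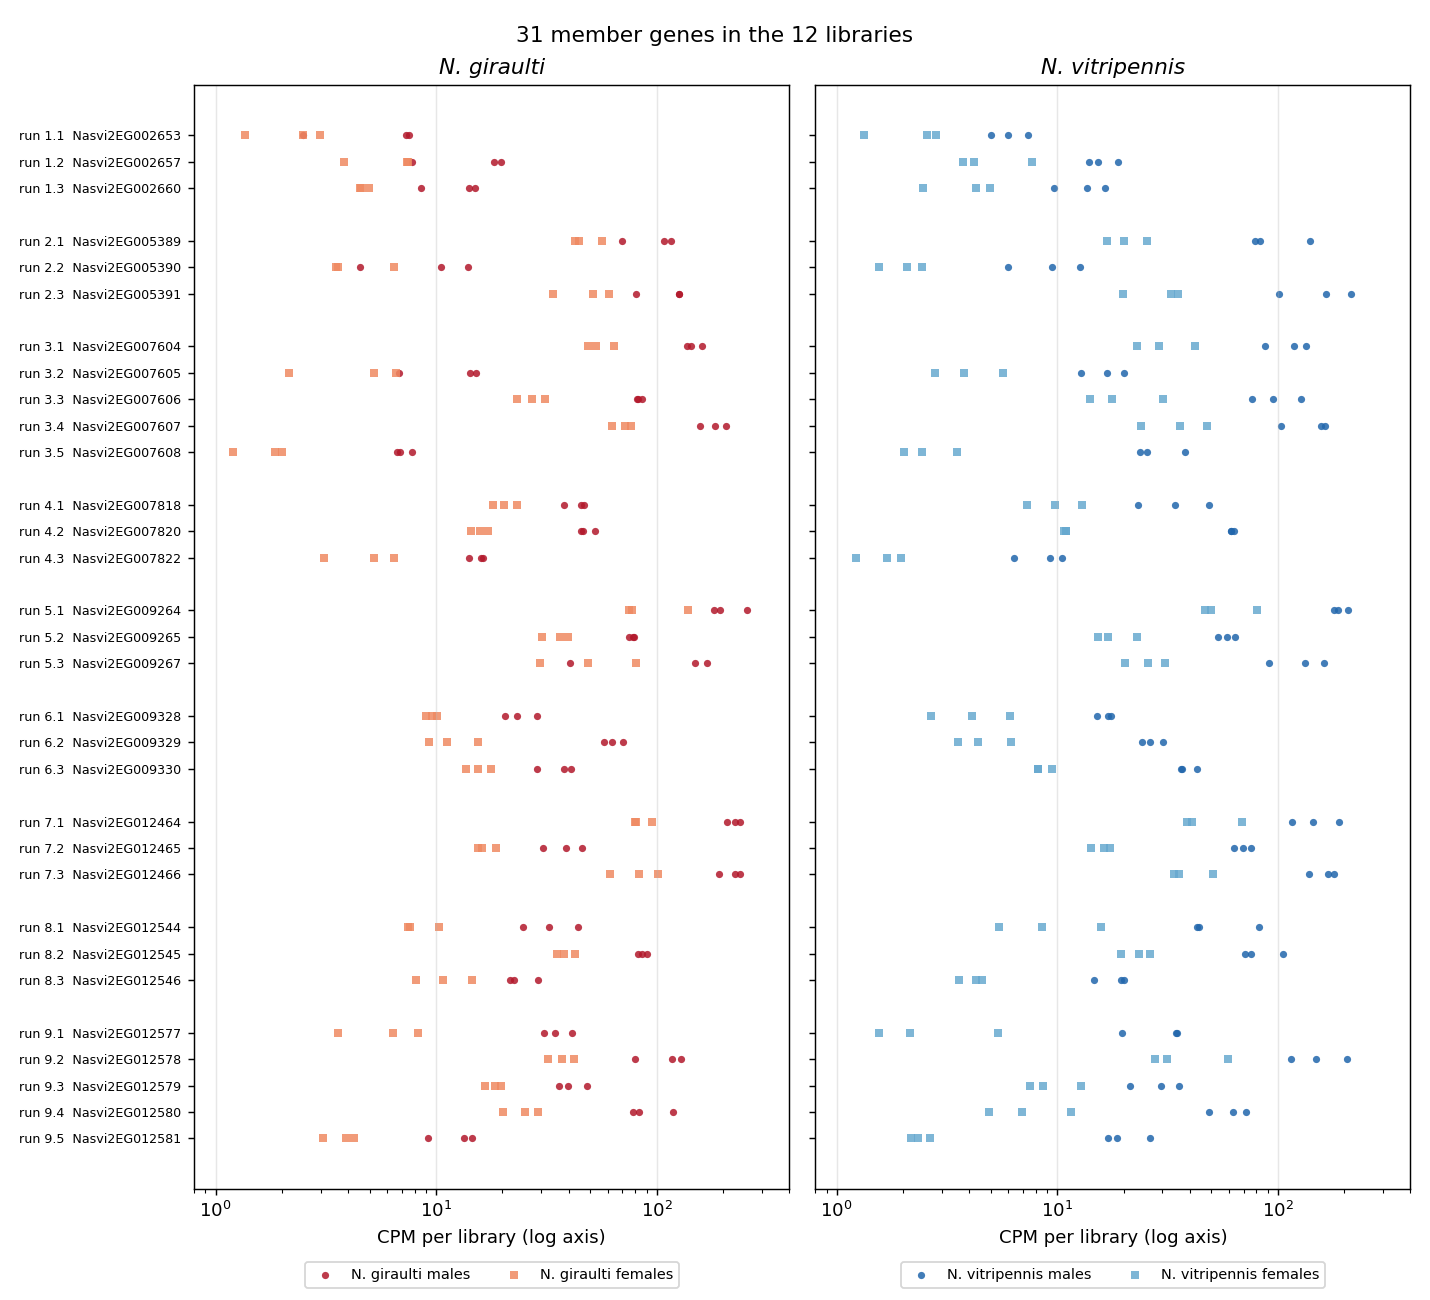
CPM of the 31 members in each library on a log axis, N. giraulti on the left and N. vitripennis on the right, with circles for males and squares for females, grouped by run. In N. vitripennis the males lay above the females without overlap for all 31 genes, and in N. giraulti for 28.

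In N. giraulti the members' mean levels ran from 5.78 to 225 CPM in males and from 1.69 to 96.9 CPM in females. In N. vitripennis they ran from 6.13 to 193 CPM in males and from 1.63 to 59.1 CPM in females. On the log2(CPM + 0.5) scale of the rule, the median male-over-female difference was 1.30 in N. giraulti, with a range of 1.02 to 2.45. It was 2.00 in N. vitripennis, with a range of 1.28 to 3.23. In the main fit, which used trimmed-mean scaling between libraries, the medians were 1.64 in N. giraulti and 2.00 in N. vitripennis. The gap between the species in these medians thus depended on the scaling. In a fit across all 16536 tested genes, 31 of 31 members were called higher in males in each species (quasi-likelihood test of edgeR, p adjusted after Benjamini and Hochberg over all tested genes, threshold 0.05). Among all genes tested, 56.9% were called in N. giraulti, 30% higher and 26.9% lower in males, and 65% in N. vitripennis, 32.6% higher and 32.4% lower. The rule had fixed these calls nearly in full, so nothing is read from them. Every male library exceeded every female library for 28 members in N. giraulti and for 31 in N. vitripennis, where the shares over all tested genes were 26.3% and 37.2%. The 3 members with overlap in N. giraulti were Nasvi2EG002653, Nasvi2EG005390 and Nasvi2EG009267.

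The members nearest to the thresholds show how narrowly the runs were drawn. Nasvi2EG002653 stood just inside the lower limit with 5.78 CPM in N. giraulti males, and the bordering gene Nasvi2EG009331 stood just outside with 4.02 CPM in N. vitripennis males. The smallest sex difference of a member in N. giraulti was 1.02 on the log2 scale of the rule (Nasvi2EG005390), and the bordering gene Nasvi2EG012467 fell outside at 0.86. At the other ends, members reached 3.23 in N. vitripennis and an absolute species difference in males of 1.96, both in Nasvi2EG007608. Of the 18 bordering rows, 5 failed a single criterion, which was the sex difference in N. giraulti for 3 and the level for 2.

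Run 3 held 5 genes with consecutive numbers, Nasvi2EG007604 to Nasvi2EG007608, and is 1 of the 2 longest. Its first gene, Nasvi2EG007604, had 138, 143 and 160.3 CPM in the 3 libraries of N. giraulti males and 48.7, 53.2 and 64.2 CPM in N. giraulti females. In N. vitripennis it had 134, 88.0 and 119 CPM in males and 29.0, 22.9 and 42.2 CPM in females. The sexes did not overlap in either species, and each N. giraulti library lay above each N. vitripennis library of the same sex. Neither species difference was called (edgeR adjusted p = 0.0893 in females and 0.124 in males). Both were called with replicate numbers as blocks (edgeR adjusted p = 0.0165 in females and 0.0293 in males).

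The fourth gene, Nasvi2EG007607, had the same order of group means. Its levels were 158, 207 and 184 CPM in N. giraulti males and 62.8, 76.9 and 71.7 CPM in N. giraulti females. They were 104, 165 and 158 CPM in N. vitripennis males and 24.0, 36.2 and 48.0 CPM in N. vitripennis females. Its males and females were separate in both species, and the species were separate in females but overlapped in males. The species difference in females was called (log2 fold change 0.76, SE 0.25, edgeR adjusted p = 0.0364), and the call was lost without N. vitripennis female library 1 or 2 or N. giraulti female library 2 or 3, with edgeR adjusted p up to 0.125.

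Nasvi2EG007605 had 6.79, 15.1 and 14.3 CPM in N. giraulti males and 2.15, 5.24 and 6.55 CPM in N. giraulti females, so its closest male and female libraries were 6.79 and 6.55 CPM. In N. vitripennis it had 16.8, 12.9 and 20.02 CPM in males and 2.80, 3.79 and 5.66 CPM in females. Nasvi2EG007606 had 86.1, 81.8 and 82.2 CPM in N. giraulti males, against 31.2, 23.3 and 27.3 CPM in N. giraulti females. Its N. vitripennis values were 94.9, 76.2 and 127 CPM in males and 17.8, 14.1 and 30.2 CPM in females. For these middle genes the species overlapped within each sex.

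The last gene of run 3 went the other way between the species. Nasvi2EG007608 had 6.62, 6.89 and 7.81 CPM in N. giraulti males and 1.20, 2.00 and 1.86 CPM in N. giraulti females. It had 23.6, 38.2 and 25.5 CPM in N. vitripennis males and 2.02, 2.45 and 3.52 CPM in N. vitripennis females. Its N. giraulti libraries lay below the N. vitripennis libraries of the same sex without overlap. Between the species, with N. giraulti on top, the log2 fold change in males was -1.82 (SE 0.31), the lowest of all members, with an edgeR adjusted p of 0.000472. In females it was -0.86 (SE 0.31, edgeR adjusted p = 0.0506). With replicate numbers held as blocks, the edgeR adjusted p in females was 0.0123.

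Run 9, also of 5 genes with consecutive numbers, was Nasvi2EG012577 to Nasvi2EG012581. Nasvi2EG012577 had 41.1, 34.7 and 30.99 CPM in N. giraulti males and 8.30, 6.41 and 3.58 CPM in N. giraulti females. It had 19.8, 34.4 and 34.8 CPM in N. vitripennis males and 2.15, 1.55 and 5.39 CPM in N. vitripennis females. Males exceeded females by 2.85 (SE 0.46) on the log2 scale in N. giraulti, the highest value of a member there, and by 3.15 (SE 0.47) in N. vitripennis.

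Nasvi2EG012580 differed most between the species in females. It had 20.1, 28.9 and 25.3 CPM in N. giraulti females, against 6.90, 4.89 and 11.6 CPM in N. vitripennis females, a log2 fold change of 1.46 (SE 0.32, edgeR adjusted p = 0.00396). In males the values were 78.2, 119 and 82.8 CPM in N. giraulti and 62.6, 48.7 and 71.7 CPM in N. vitripennis. The species did not overlap in either sex, but the difference in males was not called (log2 fold change 0.80, SE 0.31, edgeR adjusted p = 0.0706). It was called with replicate numbers as blocks (edgeR adjusted p = 0.0447).

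Nasvi2EG012579 had the second lowest fitted sex difference of the members in N. vitripennis, 1.45 (SE 0.26), and 1.46 (SE 0.26) in N. giraulti. It had 39.5, 48.1 and 36.0 CPM in N. giraulti males and 16.7, 18.5 and 19.7 CPM in N. giraulti females. It had 21.3, 35.7 and 29.5 CPM in N. vitripennis males and 7.49, 8.61 and 12.8 CPM in N. vitripennis females. In both sexes the N. giraulti libraries were all above the N. vitripennis libraries, and both differences were called (log2 fold change 0.72, SE 0.25, edgeR adjusted p = 0.0474 in females and 0.73, SE 0.25, edgeR adjusted p = 0.0414 in males). The call in females was lost without any of 5 of the 6 female libraries, N. vitripennis library 3 being the exception, with edgeR adjusted p up to 0.159. That in males was lost with library size alone.

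The remaining genes of run 9 showed other orders. Nasvi2EG012578 had 79.9, 118 and 128 CPM in N. giraulti males and 32.2, 37.1 and 42.3 CPM in N. giraulti females. Its N. vitripennis values were 115, 206 and 148 CPM in males and 27.9, 31.4 and 59.6 CPM in females, so the species overlapped in both sexes. Nasvi2EG012581 had 13.3, 14.5 and 9.21 CPM in N. giraulti males and 4.25, 3.91 and 3.06 CPM in N. giraulti females, against 17.0, 26.4 and 18.8 CPM in N. vitripennis males and 2.34, 2.65 and 2.17 CPM in N. vitripennis females. N. giraulti was thus lower in males and higher in females for this gene, without overlap in either sex, but neither difference was called (edgeR adjusted p = 0.156 in males and 0.225 in females). Blocking on replicate number, the difference in males was called (edgeR adjusted p = 0.0359) and that in females was not (0.086).

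The shorter runs ranged from genes that moved almost in parallel to genes that did not. In run 1, Nasvi2EG002653, Nasvi2EG002657 and Nasvi2EG002660 averaged 5.78 ± 2.84, 15.2 ± 6.49 and 12.5 ± 3.49 CPM in N. giraulti males and 2.28 ± 0.836, 6.22 ± 2.06 and 4.68 ± 0.267 CPM in N. giraulti females (SD, n = 3 each). In N. vitripennis they averaged 6.13 ± 1.20, 16.02 ± 2.51 and 13.3 ± 3.38 CPM in males and 2.24 ± 0.797, 5.21 ± 2.16 and 3.90 ± 1.29 CPM in females. The library numbered 1 was the lowest of its group in 12 of 12 combinations of gene and group in this run. Over all members that library was lowest in 62 of 124 combinations (50%) and highest in 35. Over genes with a mean of at least 1 CPM in every group it was lowest in 36.9% of combinations, and over all qualifying genes in 63.0%. The part of these libraries in the run's likeness was not tested.

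Run 6 held the member with the widest species difference upward in males, Nasvi2EG009329. This gene had 58.0, 63.0 and 70.5 CPM in N. giraulti males, against 24.2, 26.3 and 30.3 CPM in N. vitripennis males, and a log2 fold change of 1.44 (SE 0.25, edgeR adjusted p = 0.00066). In females it had 15.5, 9.27 and 11.2 CPM in N. giraulti and 4.36, 3.55 and 6.17 CPM in N. vitripennis. Its neighbours on both sides, Nasvi2EG009328 and Nasvi2EG009330, averaged 24.1 ± 4.13 and 35.9 ± 6.44 CPM in N. giraulti males and 16.6 ± 1.20 and 38.7 ± 3.73 CPM in N. vitripennis males (SD, n = 3 each). Their log2 fold changes between the species in males were 0.74 (SE 0.29) and 0.09 (SE 0.19), and neither was called (edgeR adjusted p = 0.0679 and 0.769). Blocking on replicate number, that of Nasvi2EG009328 was called (edgeR adjusted p = 0.0183) and that of Nasvi2EG009330 was not (0.644).

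Run 7 had a similar mixture. Nasvi2EG012464 and Nasvi2EG012466 averaged 225 ± 15.3 and 219 ± 24.9 CPM in N. giraulti males, against 149.8 ± 36.7 and 163 ± 21.5 CPM in N. vitripennis males (SD, n = 3 each). Both were called higher in N. giraulti males, with log2 fold changes of 0.78 (SE 0.26) and 0.64 (SE 0.22) and edgeR adjusted p of 0.0391 and 0.0457. Between them, Nasvi2EG012465 had 45.9, 39.0 and 30.5 CPM in N. giraulti males, against 69.8, 63.2 and 75.8 CPM in N. vitripennis males. Its log2 fold change was -0.65 (SE 0.21, edgeR adjusted p = 0.0328), and this call was lost without any 1 of the N. vitripennis male libraries or N. giraulti male library 2 or 3, with edgeR adjusted p up to 0.326. The calls of Nasvi2EG012464 and Nasvi2EG012466 were lost with library size alone, where Nasvi2EG009329 was the 1 member called higher in males.

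In run 4 the middle gene, Nasvi2EG007820, varied little between the libraries of a group. It had 52.4, 46.2 and 45.4 CPM in N. giraulti males and 17.1, 15.9 and 14.4 CPM in N. giraulti females. Its N. vitripennis values were 61.4, 63.1 and 61.7 CPM in males and 10.99, 11.01 and 10.7 CPM in females. In females the N. giraulti libraries lay above those of N. vitripennis and in males they lay below, and neither difference was called (edgeR adjusted p = 0.156 in females and 0.516 in males). With replicate numbers as blocks the difference in females was called (edgeR adjusted p = 0.0413) and that in males was not (0.272).

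Run 5 joined genes of unlike spread. Nasvi2EG009265 had 79.2, 75.1 and 78.5 CPM in N. giraulti males, against 58.7, 53.9 and 64.0 CPM in N. vitripennis males, and 39.5, 30.3 and 36.4 CPM in N. giraulti females, against 17.0, 15.3 and 23.0 CPM in N. vitripennis females. It was called higher in N. giraulti in both sexes (edgeR adjusted p = 0.0409 in males and 0.0166 in females). The call in males was lost with library size alone. The next member, Nasvi2EG009267, had 40.4, 149 and 169 CPM in N. giraulti males and 29.7, 49.0 and 80.7 CPM in N. giraulti females, so library 1 was far below the other two in males. Its N. vitripennis values were 91.8, 162 and 133 CPM in males and 20.4, 25.7 and 30.8 CPM in females.

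Run 8 held 2 members called higher in N. giraulti females beside Nasvi2EG012544, which was not. Nasvi2EG012546 had 14.6, 8.13 and 10.8 CPM in N. giraulti females, against 4.29, 3.59 and 4.57 CPM in N. vitripennis females, a log2 fold change of 1.22 (SE 0.27, edgeR adjusted p = 0.00381). Nasvi2EG012545 had 42.6, 35.2 and 38.1 CPM in N. giraulti females, against 23.4, 26.3 and 19.6 CPM in N. vitripennis females, a log2 fold change of 0.54 (SE 0.17, edgeR adjusted p = 0.0289). The species were separate in females for both genes.

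The species difference in females was the contrast on which the rule set no limit of its own, although its other limits bound it to less than 4.5 in absolute log2 value. In N. giraulti females 13 of the 31 members were called higher than in N. vitripennis females and 0 were called lower in the same edgeR fit. Over all genes tested 30.9% were called, 12.5% higher and 18.4% lower, and over all 953 qualifying genes 150 were called higher and 51 lower. The 13 genes lay in 8 of the 9 runs and were 1.46-fold to 2.75-fold higher in N. giraulti. At an unadjusted p under 0.05 there were 16 members. Every N. giraulti female library exceeded every N. vitripennis female library for 18 members, with 1 the other way, where the shares over all tested genes were 22.4% and 18.1%.

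**Figure D2:**
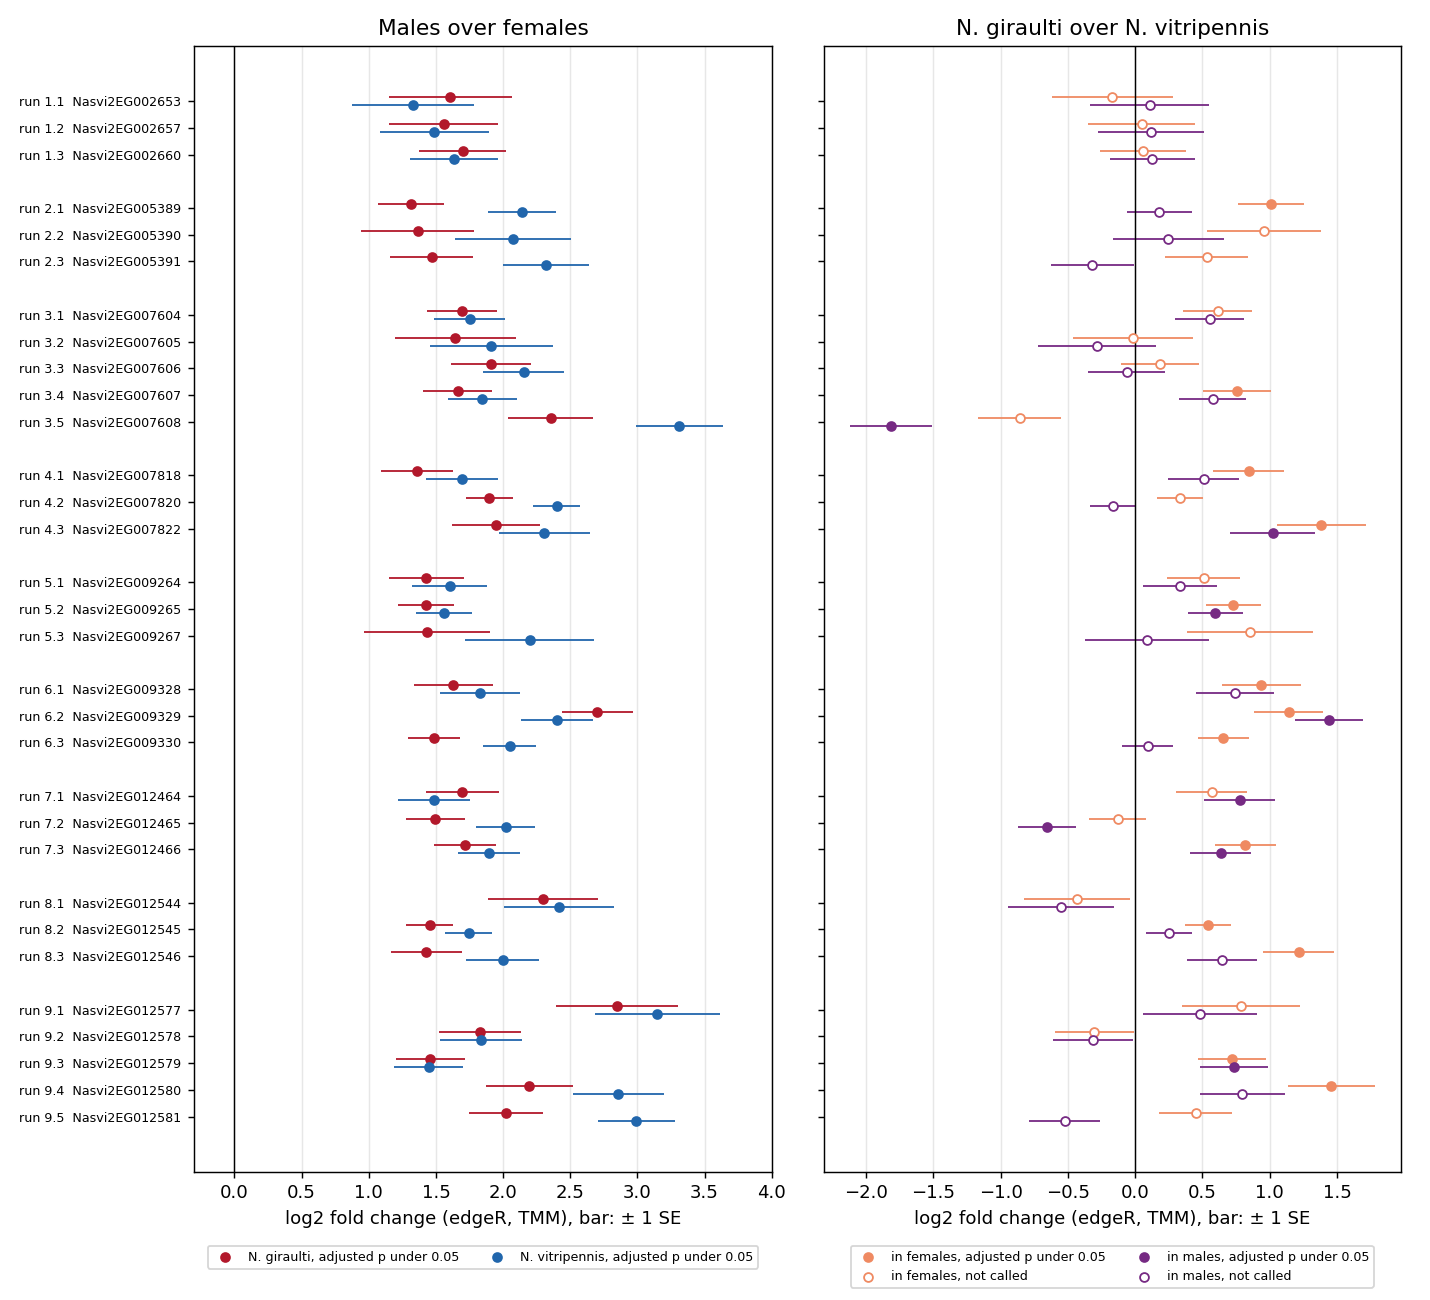
Log2 fold changes with 1 SE from the fit across all tested genes, for each member: males over females in each species on the left, and N. giraulti over N. vitripennis in females and in males on the right. Filled points have an adjusted p under 0.05. In females 13 members lie filled to the right of 0, and in males 6 lie to the right and 2 to the left.

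Among the members higher in N. giraulti females, Nasvi2EG007822 of run 4 had the second widest difference. It had 6.43, 3.11 and 5.24 CPM in N. giraulti females, against 1.96, 1.22 and 1.69 CPM in N. vitripennis females, a log2 fold change of 1.38 (SE 0.33, edgeR adjusted p = 0.0062). In males it had 16.3, 14.1 and 15.97 CPM in N. giraulti and 10.5, 9.26 and 6.38 CPM in N. vitripennis, with a log2 fold change of 1.02 (SE 0.32, edgeR adjusted p = 0.0254). The species were separate in both sexes. The call in males was lost with library size alone (edgeR adjusted p = 0.0672) and without N. vitripennis male library 2 (0.0521) or 3 (0.0748). At the low end stood Nasvi2EG007608, described above, and Nasvi2EG012544 of run 8. Nasvi2EG012544 had 10.3, 7.58 and 7.50 CPM in N. giraulti females and 15.8, 5.42 and 8.51 CPM in N. vitripennis females, with overlap (log2 fold change -0.43, SE 0.40, edgeR adjusted p = 0.427).

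All 3 members of run 6 were called higher in N. giraulti females, whereas run 1 had none, with log2 fold changes from -0.17 to 0.06. The runs' median log2 fold change in females ran from 0.05 in run 1 to 0.96 in run 2. Over the 31 members the median was 0.61, against 0.36 over the qualifying genes and -0.20 over all genes tested. With upper-quartile scaling the median of all genes was 0.02 and that of the members 0.83. Relative to the median of all genes the members stood 0.81 higher under the trimmed-mean (TMM) scaling of the main fit. Under the other scalings tried they stood 0.81 to 0.82 higher. All qualifying genes stood 0.56 higher under TMM. A change of scaling shifts all genes by nearly the same amount, so it could hardly move these values. Nothing is read from their agreement. When 1 female library was left out, the members' value ran from 0.71 to 1.04 and that of the qualifying genes from 0.34 to 0.74.

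The number of members called in females depended on which libraries entered. It fell to 7, 7, 7, 8 and 6 when N. vitripennis female library 1 or 2, or N. giraulti female library 1, 2 or 3, was left out. Of all genes tested 24.8%, 24.8%, 27.3%, 24.3% and 22.4% were called in these fits, in the same order. Without N. vitripennis female library 3 there were 14 members called, and 31.1% of all genes. Without N. vitripennis female library 1 there was 1 member called lower. With replicate numbers held as blocks, 19 members were called higher and 1 lower, where 48.8% of all genes tested were called. No source used here names the reference sequence that the reads of each species were aligned to. In any species difference, expression and how well N. giraulti reads aligned cannot be told apart.

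In males, 6 members were called higher in N. giraulti and 2 lower, where 31.6% of all genes were called, 15% higher and 16.6% lower. The rule had limited this difference. Of the 6, 5 were also among the 13 called in females, and 8 of the 13 were not called in males. Nasvi2EG012464 was called in males and not in females (log2 fold change 0.57, SE 0.26, edgeR adjusted p = 0.121), although the block gave a call in females as well (edgeR adjusted p = 0.0284). Blocking on replicate number, 12 members were called higher and 3 lower in males, with library size alone 1 higher and 2 lower, and with upper-quartile scaling 3 higher and 2 lower. Over all genes tested 45.0% were called with the block, 33.3% with library size alone and 32.2% with upper-quartile scaling. Without N. vitripennis male library 2 the members' counts were 3 and 1, and without library 3 they were 4 and 1. In these fits 27.0% and 26.6% of all genes were called.

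Whether the sex difference itself depended on the species was tested with an interaction contrast, males over females in N. giraulti minus the same in N. vitripennis. The rule bounds it to less than 2.5 in absolute value. None of the 31 members passed (quasi-likelihood test of edgeR, lowest adjusted p = 0.161), and 3 had an unadjusted p under 0.05. Of all genes tested 7.02% were called, 4.29% with a higher and 2.73% with a lower value. Of the 953 qualifying genes, held by the same limits, 1.36% were called, 7 with a higher and 6 with a lower value. The SE of the members' interactions had a median of 0.39. Whether the limits of the rule lowered the share called was not tested, and nothing is read from the absence of calls among the members. The Wald test of DESeq2 called 0 members as well, where it called 9.11% of all genes. Blocking on replicate number, where 16.9% of all genes tested were called, 2 members were called, both with a smaller sex difference in N. giraulti. These were Nasvi2EG005389 of run 2 (log2 difference -0.84, adjusted p = 0.0437) and Nasvi2EG012581 of run 9 (-0.98, adjusted p = 0.0316). Library size alone gave 1 such call, where 7.18% of all genes were called.

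The members' fitted interactions ran from -0.97 (SE 0.38) in Nasvi2EG012581 and -0.96 (SE 0.43) in Nasvi2EG007608 to 0.28 (SE 0.63) in Nasvi2EG002653 and 0.30 (SE 0.36) in Nasvi2EG009329. They were below 0 in 25 of 31 members, with a median of -0.27. The number below 0 was 28 under size factors of DESeq2, 29 under upper-quartile scaling and 31 under library size alone. The median of all genes was itself 0.12 under TMM, -0.10 under upper-quartile scaling and -0.28 under library size alone. Relative to it, the members' median was -0.39 under TMM, -0.38 under upper-quartile scaling and -0.37 under library size alone, and that of all qualifying genes was -0.29, -0.29 and -0.31 in the same order. A change of scaling could hardly move these relative values, as above, but they did move with single libraries. Without N. vitripennis female library 1 the members stood at -0.23 and the qualifying genes at -0.08, and without N. vitripennis female library 3 at -0.56 and -0.47. The qualifying genes also stood at -0.45 without N. vitripennis male library 1, -0.18 without N. giraulti female library 3 and -0.14 without N. giraulti male library 1. With only the libraries numbered 2 and 3 the members stood at -0.27 and the qualifying genes at -0.21.

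In run 2 all 3 members had fitted interactions below 0, from -0.85 to -0.71, and none was called without the block. Nasvi2EG005389, also the member with the lowest fitted sex difference in N. giraulti (log2 fold change 1.31, SE 0.25), had 69.5, 116 and 108 CPM in N. giraulti males and 44.5, 42.7 and 56.7 CPM in N. giraulti females. It had 78.5, 139.7 and 83.3 CPM in N. vitripennis males and 19.996, 25.6 and 16.8 CPM in N. vitripennis females. Its males overlapped between the species, and its females did not (log2 fold change 1.01, SE 0.24, edgeR adjusted p = 0.00703). The second lowest sex difference in N. giraulti was that of Nasvi2EG007818 in run 4, at 1.36 (SE 0.27). It had 37.8, 45.6 and 46.6 CPM in N. giraulti males, against 18.1, 23.3 and 20.3 CPM in N. giraulti females.

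Variation between libraries of the same group was not used by the rule, and it was compared between neighbours. For each pair of adjacent members the deviations of log2(CPM + 0.5) from the group mean were correlated over the 12 libraries. The median r of the 22 adjacent pairs was 0.42, with a range of -0.31 to 0.93, and 18 pairs were above 0. For 733 pairs of successive qualifying genes that had no qualifying neighbour the median was 0.37. For the 8 pairs made of the last member of a run and the first of the next, which are not adjacent, it was 0.41, close to the value of adjacent members. With the replicate-number means removed as well, the medians were 0.48 for adjacent members, 0.16 for the 8 pairs between runs and 0.24 for the genes without qualifying neighbours. The 94 pairs in runs of 2 had medians of 0.55 and, with replicate-number means removed, 0.42. These correlations are descriptions without a test, because the pairs share the same 12 libraries.

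Within a run, likeness differed from pair to pair. Nasvi2EG002653 and Nasvi2EG002657 of run 1 had the highest r, 0.93, and Nasvi2EG012544 and Nasvi2EG012545 of run 8 the lowest, -0.31. With replicate-number means removed, Nasvi2EG005389 and Nasvi2EG005390 of run 2 stood highest at 0.92. The sex differences of adjacent members, limited to the same window by the rule, differed by a median of 0.23 on the log2 scale in N. giraulti and 0.34 in N. vitripennis. Successive qualifying genes without qualifying neighbours differed by 0.27 and 0.44.

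How often qualifying genes had a qualifying neighbour is given as a description, since the same calls define the runs and rows are not independent. Of the rows that follow a qualifying row, 12.2% (116 of 953) qualified, where the share of all rows was 3.92%, and the 116 include the members' own 22 adjacent pairs. The share was 9.23% at a distance of 2 rows, 8.81% at 3, 6.82% at 5, 5.25% at 10, 7.25% at 20, 5.47% at 50 and 4.74% at 100, so it did not fall at every step. The mirrored rule for female-biased genes found 1735 qualifying genes (7.13% of rows), of which 153 lay in 47 runs of 3 or more. There 18.2% of next rows qualified, and 9.98% of rows at a distance of 100. In ratio to the share of all rows, the next row stood at 3.11 for the male-biased and 2.56 for the female-biased genes, and the difference between these ratios was not tested.

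**Figure D3:**
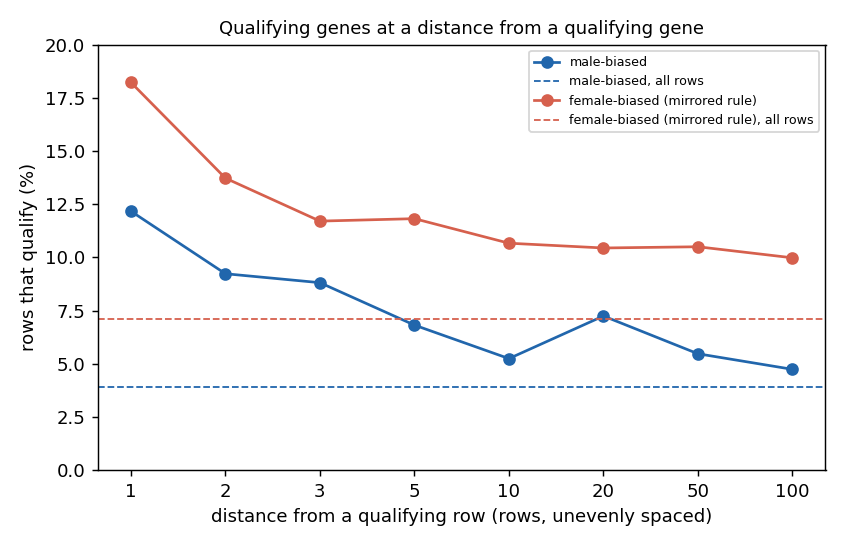
Share of rows that qualify at a given distance from a qualifying row, for the male-biased rule and its female-biased mirror, with dashed lines at the share over all rows. The male-biased share lay at 12.2% in the next row and at 4.74% at 100 rows, against 3.92% of all rows.

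The runs themselves were unevenly placed. Runs 7, 8 and 9 lay within 93 rows, between identifier numbers 12464 and 12581, and runs 5 and 6 within 47 rows. Run 2 followed run 1 after 2234 rows and preceded run 3 by 1791. Outside the members, 3 of the 82 rows between runs 7 and 9 (3.66%) and 4 of the 41 rows between runs 5 and 6 (9.76%) qualified. These stretches were picked after their values were seen.

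Rows a short way outside the runs were not used to find them. In the 72 rows at a distance of 2 to 5 from a run, 9 qualified (12.5%), and in the 90 rows at 6 to 10 there were 7 (7.78%). Of all rows 3.92% qualified, and the difference was not tested. Of the 40 near rows with whole counts and a mean of at least 5 CPM in a sex of each species, 11 (27.5%) were at least 2-fold higher in males of both species, and 10 (25%) at least 2-fold higher in females of both. Over all rows of that kind the shares were 16.4% and 30.7%. Rows close to the runs thus held both male-biased and female-biased genes, as the surroundings of the longest runs show.

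**Figure D4:**
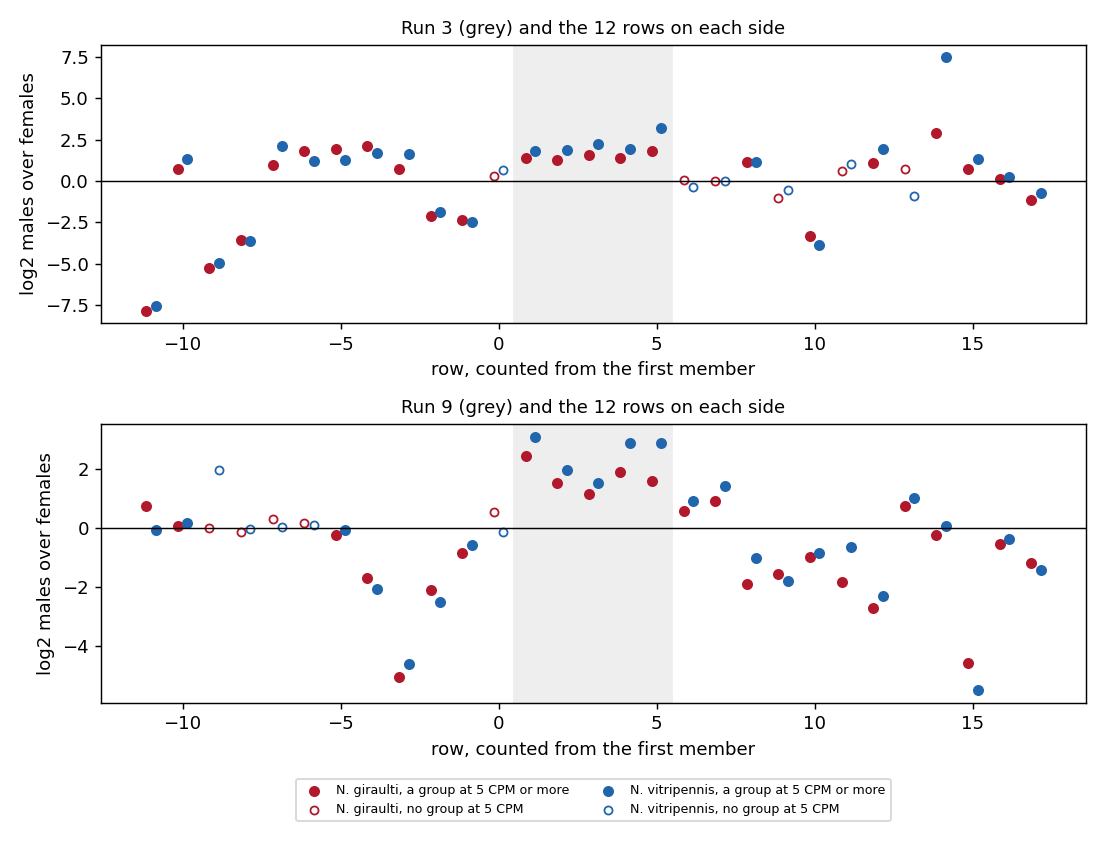
Log2 difference of males over females by row in each species, for the 2 longest runs (grey band) and the 12 rows on each side. Open points have no group mean of 5 CPM. Around run 3, 11 of 18 rows with such a mean were higher in males of both species, and around run 9, 4 of 19.

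Around run 3, 11 of the 18 neighbouring rows with a group mean of at least 5 CPM were higher in males of both species and 7 were higher in females of both. Around run 9, 4 of 19 were higher in males of both species, 13 were higher in females of both and 2 differed in direction. The difference between these surroundings was not tested. Fractional counts were held by 4 rows around run 3 and 0 around run 9. Nasvi2EG007596, Nasvi2EG007597 and Nasvi2EG007621, each among the 11 rows higher in males, were of that kind. The row on each side of run 3 had at most 0.695 CPM in any group. Run 9 was followed by Nasvi2EG012582, which had group means of 365 CPM in males and 243.6 CPM in females of N. giraulti, and of 435 CPM in males and 227 CPM in females of N. vitripennis. It was excluded by its level as well as by both sex differences. Run 8 was followed by Nasvi2EG012549, a gene strongly higher in females, with means of 1.499 CPM in males and 91.9 CPM in females of N. giraulti, and of 1.81 CPM in males and 108 CPM in females of N. vitripennis.

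The membership rested closely on its limits. Leaving out 1 library at a time, 23 to 31 of the 31 members still qualified on their own, and 19 did so whichever library was left out. Counted in runs of 3 or more, there were 17 genes without N. giraulti female library 1, 47 without N. giraulti female library 3 and 54 without N. giraulti male library 1. Where that count was under 30, the rule itself would have turned to runs of 2 or more. Such runs held 219 genes when all libraries entered. With TMM-scaled CPM the rule found 55 genes in 16 runs, all 31 members among them.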

How the data were processed

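Whole-body RNA of 24 h adults was sequenced in 12 libraries from 2 ug of total RNA with TruSeq version 2 kits, per the labels' protocols. The deposited table of the authors holds estimated counts (some fractional) for 24337 genes, without scaling between libraries. The submitters' processing notes name, with no roles, HTSeq, TopHat2 2.0, Cufflinks 2.1.0, bedtools, edgeR, CASAVA 1.8.2, Trimmomatic and FastQC. No source used here gives the build, annotation or alignment settings.

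Members were found by the rule in the report. The members and the comparisons were chosen with earlier results of these data known. Levels are CPM from column sums. Counts were rounded and tested with edgeR 4.0.16 (R 4.3.3), filterByExpr (minimum count of 10; 16536 genes), TMM, a robust quasi-likelihood fit of all 12 libraries with a mean per group, and Benjamini-Hochberg adjustment over all tested genes, threshold 0.05. The script was tested on simulated data. SE is the absolute log2 fold change over the square root of F. Alternatives were DESeq2 1.42.0, other scalings and filters, a replicate block and left-out libraries. Deviations of the 18 library pairs with the same number correlated at r of 0.23 to 0.75, against -0.63 to 0.40 for 36 other pairs. The numbers were therefore taken to pair libraries in the block fit, whereas the main fit held no block. The common dispersion was 0.111 in the main fit and 0.0477 with the block. The pairing by number comes from the data. A floor of 3 counts is 0.0584 to 0.126 CPM per library.

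Genes given by identifier were those of the 2 longest runs, the 2 members highest and the 2 lowest in log2 fold change in each of 5 contrasts, and the genes nearest to the thresholds. Others were named after their values were seen. No marker list was used, because no identifier had a gene name.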

Additional observations from a re-analysis of the deposited data

How the results depend on the processing

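Between the sexes, 29 to 31 members were called in N. giraulti and 30 or 31 in N. vitripennis when 1 library was left out. With the replicate number as a block (paired fit), 20 members were called between species in females, 15 in males and 2 for the interaction. In that fit 48.8%, 45.0% and 16.9% of all genes tested were called, in the same order. In males, 5 members were called with upper-quartile scaling, 3 with library size alone and 5 without a count filter. When only the libraries numbered 2 and 3 entered, a setting chosen after seeing the data, 4 members were called. Of all genes tested 32.2%, 33.3%, 25.2% and 36.3% were called in males in these fits, in the same order. Library size alone gave 1 interaction call among the members, where 7.18% of all genes were called. Leaving out libraries gave 6 to 14 calls of members in females, 4 to 9 in males and 0 for the interaction. Over all genes the shares called ran from 22.4% to 31.1%, 26.6% to 30.5% and 4.47% to 6.45%, in the same order. The number of member genes was 55 with TMM-scaled CPM, 55 with fractional genes admitted, 219 in runs of 2 or more and 10 in runs of 4 or more. Without a library it was 17 to 54, counting runs of 3 or more in each case. The share of qualifying rows was 9.23%, 8.81%, 6.82%, 5.25%, 7.25%, 5.47% and 4.74% at 2, 3, 5, 10, 20, 50 and 100 rows. The median r of adjacent members stayed at 0.39 to 0.44 without a library.

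Signs of single genes were followed for 28 combinations of gene and contrast. Among these, a sign turned only where neither the main fit nor the changed fit called the gene. Over all 31 members, 9 had a species difference below 0 in males in the main fit and 15 with library size alone. Interactions above 0 were held by 6 members in the main fit and 0 with library size alone. Nasvi2EG007605 in females (-0.01) became 0.078 with DESeq2 size factors, 0.078 with its Wald test, 0.21 with upper-quartile scaling, 0.19 with library size alone, 0.059 at a mean of 1 CPM, 0.18 with only the groups compared and 0.11 in the libraries numbered 2 and 3, and ran from -0.36 to 0.34 without a library. Nasvi2EG007606 became -0.021 in the libraries numbered 2 and 3 and ran from -0.042 to 0.58, Nasvi2EG012544 ran from -0.74 to 0.039 and Nasvi2EG012578 from -0.53 to 0.14. With library size alone the interactions of Nasvi2EG009329 and Nasvi2EG002653 were -0.11 and -0.12. The cause of these changes was not tested.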
